A study of Mus musculus with 9 samples.

Results

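The PYHIN family (also called the Ifi200 or HIN-200 family) was followed in mouse conventional type 2 dendritic cells (cDC2), which prime CD4 T cells. Its members here were the 10 symbols Ifi203, Ifi204, Ifi205, Ifi206, Ifi207, Ifi209, Ifi211, Ifi213, Mndal and Aim2, taken by exact match from the 40879 gene symbols of each count file. The members were selected on their measured levels in all 3 groups, Ifi205 because it moved in opposite directions in the 2 comparisons with WT. The members' own differences between groups are therefore a description and carry no p-value.

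The 3 groups of 3 libraries each were A20iKO, WT+IFNa and WT. All were cDC2 sorted by flow cytometry from bone marrow grown for 9 days with 100 ng/ml of Flt3L, the growth factor that drives dendritic cell development. A20iKO cells came from A20fl/fl x CD11ccre mice, in which Cre driven by the CD11c promoter, active in dendritic cells and some macrophages, deletes a floxed gene for A20. A20, encoded by Tnfaip3, is a ubiquitin-editing enzyme that restrains NF-kB signalling. WT+IFNa cells were WT cells with interferon alpha added on day 5, and WT cells had no other agent by their titles and treatment entry, although the protocol text shared by the 9 libraries mentions IFNa on day 5. The design text gives 3 mice per group; whether a library holds 1 mouse was not stated, so the SDs below are between libraries and may be partly technical. Levels are in CPM, a gene's count scaled to a common library total with TMM factors, and come from 3' tag libraries, in which a count marks 1 transcript end and does not grow with transcript length.

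Many PYHIN proteins, though not all, join a pyrin domain, which binds other pyrin domains, to 1 or more HIN-200 domains, which bind DNA. Some act in the cytosol as sensors of double-stranded DNA, others in the nucleus. Aim2 forms an inflammasome with the adaptor ASC and caspase-1, which matures interleukin-1 beta, and Ifi204, a mouse relative of human IFI16, has been tied to STING and interferon induction. Type I interferon activates the transcription factor complex ISGF3, which binds the interferon-stimulated response element (ISRE) in target promoters.

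The members lie in 1 cluster on chromosome 1, in the order Aim2, Ifi206, Ifi213, Ifi209, Ifi207, Ifi204, Mndal, Ifi211, Ifi203 and Ifi205 in the RefSeq annotation of GRCm38.p6. Their promoters were read for the core of the ISRE, GAAANNGAAA on either strand (TTTCNNTTTC in reverse), in the 250 bases before each RefSeq start site. Of the 10 members, 9 were matched by symbol, all but Ifi204. The core was found in 7 of these 9, against 3.46% of the 27025 genes with a window. The stretches that carry it are given 5′ to 3′ on the gene's strand, with the core, or in Ifi209 a match with 1 mismatch, in capitals and 20 bases on each side, because the members differ in these letters:
Ifi206: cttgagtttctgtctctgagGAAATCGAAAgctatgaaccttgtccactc
Ifi213: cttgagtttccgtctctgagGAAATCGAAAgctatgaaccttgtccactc
Ifi209: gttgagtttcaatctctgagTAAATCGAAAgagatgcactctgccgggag
Ifi207: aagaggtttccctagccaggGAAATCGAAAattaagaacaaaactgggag
Mndal: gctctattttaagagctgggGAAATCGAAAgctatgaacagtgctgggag
Ifi211: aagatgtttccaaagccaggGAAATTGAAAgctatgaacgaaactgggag
Ifi203: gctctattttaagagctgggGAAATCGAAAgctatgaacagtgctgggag
Ifi205: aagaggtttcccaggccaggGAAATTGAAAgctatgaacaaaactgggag

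These stretches lie on the minus strand at chr1:173491329-173491378 (Ifi206), chr1:173599316-173599365 (Ifi213), chr1:173741821-173741870 (Ifi207), chr1:173880194-173880243 (Mndal), chr1:173913054-173913103 (Ifi211), chr1:173942498-173942547 (Ifi203) and chr1:174031860-174031909 (Ifi205), and for Ifi209 on the plus strand at chr1:173630760-173630809, all in GRCm38.p6. Their capital letters fell into 3 forms. Ifi206, Ifi213, Ifi207, Mndal and Ifi203 carried GAAATCGAAA, and Ifi205 and Ifi211 carried GAAATTGAAA. The whole stretches grouped otherwise. That of Ifi207 differed in 6 of 50 letters from that of Ifi205 and in 8 from that of Ifi211, but in 26 from that of Ifi206. Ifi209 had no exact core within the window. Of its 2 matches with 1 mismatch, the one nearer the start site is shown, which carried the substitution G1T, counted from the core's 5′ end.

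The core began 35 bases before the start site in Ifi203, 36 in Mndal, 37 in Ifi211, 40 in Ifi206 and 41 in Ifi207, but 73 in Ifi213 and 134 in Ifi205. Ifi203 and Mndal each have 2 start-site windows in RefSeq. The other window of Ifi203 held no exact core, its best match having 2 mismatches, and that of Mndal held an exact core on the opposite strand, TTTCTCTTTC, 54 bases before the start site. Ifi203 and Mndal printed the same 50 letters, and their whole upstream windows were 89.3% identical, against 85.0% for Ifi207 and Ifi211 and 75.6% for Ifi206 and Ifi213. The best match in Aim2 had 3 mismatches. None of the 9 members with a window held TTCNNNGAA, the core of the gamma-activated site, which 8.13% of genes held. Nor did any of them hold GGGNNTTNCC, a form of the NF-kB site (its reverse complement included), which 4.71% held. A match is a description of the letters and not a bound site.

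Total counts ran from 7187359 to 9518822 in A20iKO, 7041519 to 10246810 in WT+IFNa and 6900598 to 10552756 in WT. Tnfaip3 had 285 to 476 counts in A20iKO, 73 to 84 in WT+IFNa and 42 to 232 in WT. Which exons Cre removes was not given in the sources used here. A 3' read beyond those exons would be counted with or without the deletion, so these counts do not test it. All 9 cDC2 markers were detected in each group, with a summed level of 7036 to 8186 CPM in A20iKO, 9863 to 11946 CPM in WT+IFNa and 13780 to 17793 CPM in WT. Within this list H2-Ab1 averaged 3809, 5392 and 8502 CPM in A20iKO, WT+IFNa and WT, and Cd74 2935, 4087 and 5921 CPM. In the same order Cd209a averaged 10.99, 114.3 and 331.3 CPM, Clec10a 103.5, 484.3 and 515.8 CPM and Irf4 58.65, 133.7 and 157.5 CPM. Itgam and Flt3 were also lowest in A20iKO and highest in WT. Sirpa went the other way with 456, 198 and 170.02 CPM, as did Itgax with 132.8, 104.7 and 91.82 CPM. The 9 monocyte and macrophage markers, all detected, summed to 1682 to 1820 CPM in A20iKO, 1121 to 1278 CPM in WT+IFNa and 318 to 351 CPM in WT. Of 6 neutrophil markers 5 were detected, Ly6g being at 0, with 201 to 284 CPM in A20iKO, 260 to 322 CPM in WT+IFNa and 80.8 to 91.8 CPM in WT, and the 5 plasmacytoid dendritic cell markers summed to 739 to 967, 781 to 923 and 576 to 724 CPM in these groups. Single markers did not all follow their sums. Adgre1 averaged 37.1 CPM in A20iKO and 92.5 CPM in WT, Siglech 63.0 and 242 CPM, and S100a9 4.85 and 47.8 CPM. Prtn3 stood at 174 and 0.594 CPM. Every monocyte and macrophage marker but Adgre1 was higher in A20iKO than in WT, among them Ly6c2 (741 and 26.0 CPM), Csf1r (594 and 146 CPM) and Mertk (22.3 and 0.442 CPM). So was every plasmacytoid marker but Siglech, among them Tcf4 (529 and 312 CPM) and Ly6d (109 and 5.61 CPM). Between WT+IFNa and WT, Ly6c2 (679 and 26.0 CPM) differed most in CPM among the monocyte and macrophage markers. As a ratio, Fcgr1 (74.7 and 1.92 CPM) differed most. Apoe stood at 199 and 44.8 CPM and Csf1r at 186 and 146 CPM. Only Adgre1 (38.4 and 92.5 CPM) and Cd14 (9.17 and 14.6 CPM) were lower in WT+IFNa. Of the plasmacytoid markers, Bst2 (286 and 70.3 CPM), Tcf4 (394 and 312 CPM) and Ly6d (12.3 and 5.61 CPM) were higher there. Siglech (159 and 242 CPM) and Ccr9 (12.5 and 16.5 CPM) were lower. Macrophages also express PYHIN genes, and the part of such cells in the members' levels was not tested. In bulk RNA, more cells of a type and more RNA per cell cannot be told apart.

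All 10 members passed the filter on low counts, which 13251 genes passed. Each of the 10 had its highest mean in WT+IFNa, and 8 had their lowest in WT, the exceptions being Ifi205 and Aim2, lowest in A20iKO. Summed over the family, the level was 1906 ± 89.6 CPM in A20iKO, 4468 ± 458 CPM in WT+IFNa and 867 ± 143 CPM in WT (SD, n = 3 libraries each, as throughout), and the libraries of the 3 groups did not overlap. The family thus took 0.194%, 0.422% and 0.0891% of all counts in A20iKO, WT+IFNa and WT.

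**Figure D1:**
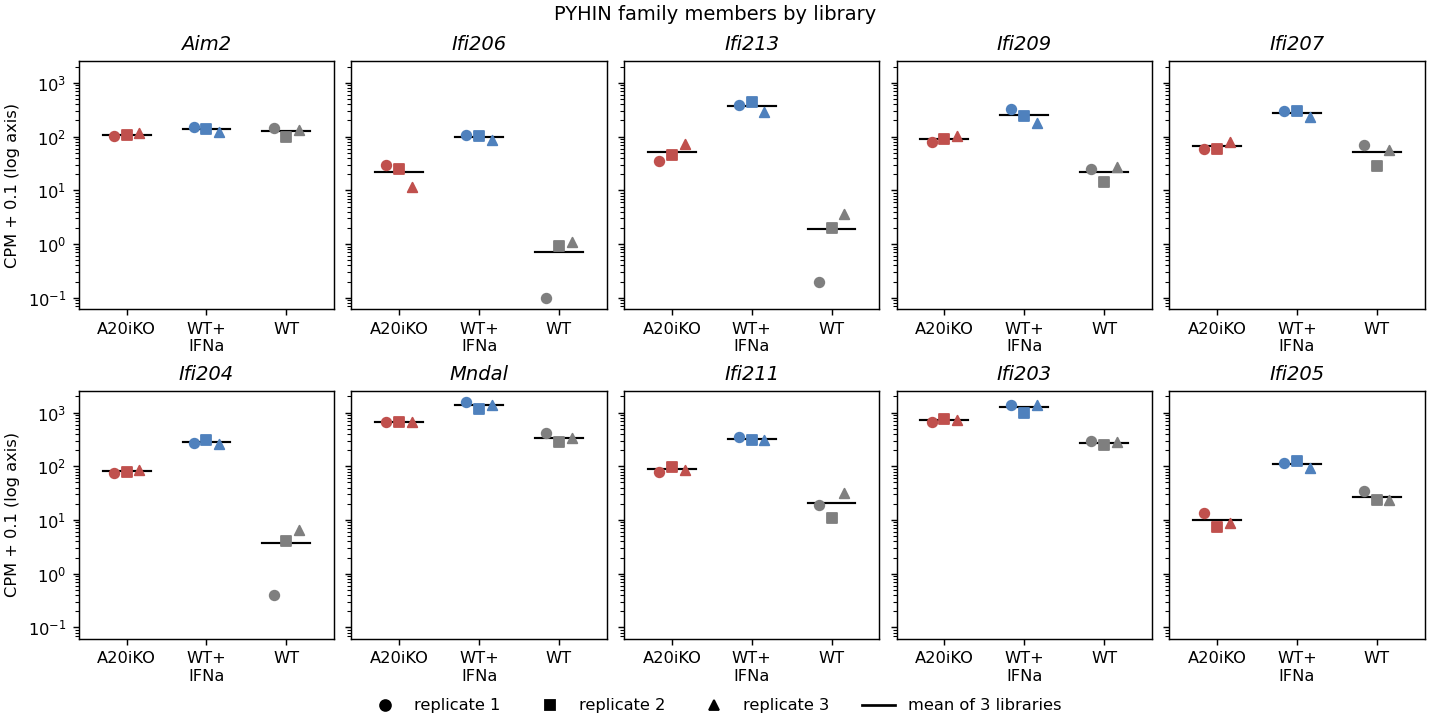
CPM of each member in every library on a shared log axis (0.1 added so that a 0 can be drawn), 1 panel per member in chromosomal order, with 3 libraries of A20iKO, WT+IFNa and WT as points and their mean as a line. The WT points of Ifi204, Ifi206 and Ifi213 lie below 10 CPM, those of Ifi203 and Mndal above 200 CPM in all groups, and the 3 groups of Aim2 lie at nearly the same height.

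A first set of 3 members, Ifi204, Ifi206 and Ifi213, was close to absent in WT. Ifi204, the STING-linked relative of IFI16, had 75.8, 78.2 and 86.6 CPM in the A20iKO libraries, 275, 303 and 257 CPM in WT+IFNa and 0.294, 4.01 and 6.40 CPM in WT. These WT levels rested on 3, 30 and 63 counts. Its mean was 22.5 times that of WT in A20iKO and 78.0 times in WT+IFNa, and no group overlapped another.

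Ifi213 had 35.4, 44.5 and 72.1 CPM in A20iKO, 396, 435 and 293 CPM in WT+IFNa and 0.0981, 1.87 and 3.55 CPM in WT, the WT values from 1, 14 and 35 counts. It was the third most abundant member in WT+IFNa, where it averaged 375 ± 73.6 CPM, and next to last in WT, with 1.84 ± 1.73 CPM. Its log2 fold change over WT was 4.78 in A20iKO (SE 0.569) and 7.67 in WT+IFNa (SE 0.618), and the second value was the highest of all members.

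Ifi206 had 29.0, 24.5 and 11.6 CPM in A20iKO, 107, 104 and 88.3 CPM in WT+IFNa and 0, 0.803 and 1.02 CPM in WT. It was the least abundant member in WT, with 16 counts over 3 libraries, and in WT+IFNa. The log2 fold change was 5.17 in A20iKO (SE 0.611) and 7.37 in WT+IFNa (SE 0.640), and again no group overlapped another.

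The size of these 3 fold changes depended on single WT libraries. Without WT replicate 3 the log2 fold changes in A20iKO were 5.31 for Ifi204, 5.88 for Ifi206 and 5.81 for Ifi213, and in WT+IFNa 7.11, 8.09 and 8.70. Without WT replicate 1 those of Ifi206 and Ifi213 were 4.56 and 4.19 in A20iKO and 6.74 and 7.07 in WT+IFNa. With each library left out in turn, that of Ifi204 fell as low as 3.94 in A20iKO and 5.72 in WT+IFNa. All kept their direction. The promoters of Ifi206 and Ifi213 printed above differ from each other in 1 of 50 letters.

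The second set, Ifi203 and Mndal, held most of the family's counts in every group. Both encode nuclear HIN-200 proteins, and both carried the same printed promoter stretch. Ifi203 had 674, 763 and 725 CPM in A20iKO, 1378, 997 and 1359 CPM in WT+IFNa and 291, 247 and 285 CPM in WT. Mndal had 659, 673 and 682 CPM in A20iKO, 1573, 1149 and 1390 CPM in WT+IFNa and 412, 282 and 331 CPM in WT.

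The groups of each gene stood apart without overlap, but their fold changes were the smallest among the members that were higher in both comparisons with WT without overlap. In A20iKO the log2 fold change was 1.39 for Ifi203 (SE 0.148) and 0.97 for Mndal (SE 0.158), and in WT+IFNa 2.18 (SE 0.151) and 2.00 (SE 0.163). Relative to their mean, the A20iKO libraries of Mndal differed least of any member, with a mean of 671 ± 11.5 CPM. The ratio of Ifi203 to Mndal counts was 1.07 ± 0.0559 in A20iKO, 0.907 ± 0.0610 in WT+IFNa and 0.815 ± 0.0947 in WT, so that Ifi203 came first in A20iKO and Mndal in the other groups; the libraries of the A20iKO group lay above all others in this ratio.

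**Figure D2:**
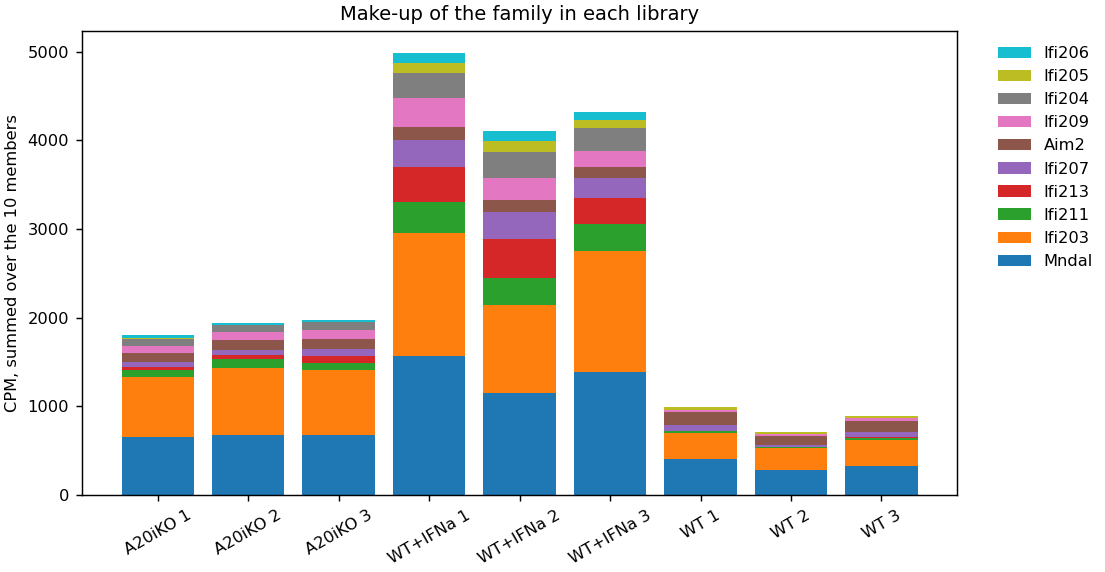
Stacked bars of the CPM of the 10 members in each of the 9 libraries, A20iKO left, WT+IFNa in the middle and WT right. The Mndal and Ifi203 blocks make up 73.0% of the family's counts in A20iKO, 58.4% in WT+IFNa and 71.3% in WT, and the Aim2 block 5.70%, 3.09% and 14.3%.

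Ifi209, Ifi211 and Ifi207 formed a middle set, between 10 and 70 CPM in every WT library. Ifi209 had 78.3, 90.6 and 101 CPM in A20iKO, 332, 243 and 179.6 CPM in WT+IFNa and 24.6, 14.0 and 27.4 CPM in WT, with no overlap between groups. Its WT+IFNa libraries spread more widely than those of any other member for their mean, 252 ± 76.5 CPM. Its log2 fold change was 2.02 in A20iKO (SE 0.274) and 3.51 in WT+IFNa (SE 0.288).

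Ifi211 had 78.3, 98.5 and 86.0 CPM in A20iKO, 354, 305 and 307 CPM in WT+IFNa and 18.7, 10.8 and 31.3 CPM in WT. The groups did not overlap, and the log2 fold change was 2.10 in A20iKO (SE 0.292) and 3.98 in WT+IFNa (SE 0.313).

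Ifi207, which has been tied to STING in mouse, separated WT+IFNa from the rest but not A20iKO from WT. It had 59.4, 59.8 and 78.8 CPM in A20iKO, 300.1, 302 and 232 CPM in WT+IFNa and 69.2, 28.6 and 55.1 CPM in WT. The A20iKO and WT libraries overlapped, with a log2 fold change of 0.37 (SE 0.268), against 2.44 (SE 0.280) for WT+IFNa over WT.

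Ifi205, a regulator of the inflammasome adaptor ASC in mouse macrophages, was lower in A20iKO and higher in WT+IFNa than in WT. It had 13.7, 7.26 and 8.53 CPM in A20iKO, 117, 123 and 92.6 CPM in WT+IFNa and 35.2, 23.3 and 23.1 CPM in WT, from 64 to 104 counts in the A20iKO libraries. All 3 A20iKO libraries lay below all WT libraries, and all WT+IFNa libraries above them. The log2 fold change over WT was -1.47 in A20iKO (SE 0.287) and 2.03 in WT+IFNa (SE 0.283), and that of A20iKO over WT+IFNa was -3.50 (SE 0.304), the lowest of the family. With each library left out in turn, the A20iKO value stayed between -1.78 and -1.23 and the WT+IFNa value between 1.92 and 2.26.

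Ifi205 shares sequence with Ifi211, whose promoter has the same GAAATTGAAA core. Of the 50-base words in the last 500 bases of their GENCODE M21 transcripts, 39.6% of those of Ifi205 also occurred in Ifi211 and 77.4% of those of Ifi211 in Ifi205. How reads fitting several genes were counted was not given in the sources used here. The split of counts between the pair is therefore uncertain. Ifi205 took 14.9%, 6.87% and 9.03% of the pair's counts in A20iKO, 24.9%, 28.7% and 23.2% in WT+IFNa and 65.3%, 68.2% and 42.4% in WT.

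These shares did not overlap between groups. The pair together stood at 97.4 ± 7.33 CPM in A20iKO, 433 ± 36.2 CPM in WT+IFNa and 47.5 ± 11.6 CPM in WT, so the sum of Ifi205 and Ifi211 was higher in A20iKO than in WT while Ifi205 alone was lower. Mndal, far more abundant than either, held 11% of the words of Ifi205 and 20.2% of those of Ifi211. Other pairs with shared 3' ends were Ifi209 with Ifi214 (47.8% of the words of Ifi209), Ifi206 with the predicted gene Gm18752 (26.0%) and Ifi213 with Ifi208 (17.6%), and of the words of Mndal 12.6% occurred in Ifi211 and 11.2% in Ifi205; Aim2 shared 0.520% with any gene and Ifi204 1.77%.

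**Figure D3:**
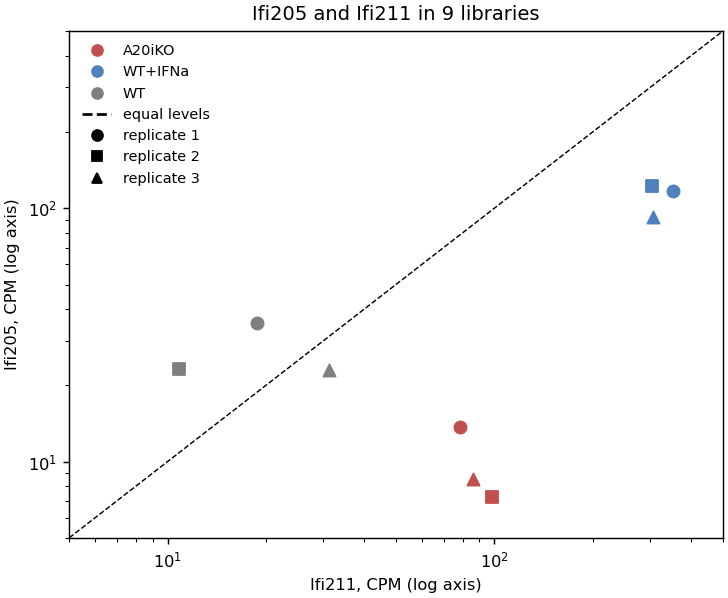
CPM of Ifi205 (vertical) against Ifi211 (horizontal) in the 9 libraries, both on log axes, coloured by group with 1 symbol per replicate number; the dashed line marks equal levels. The WT+IFNa libraries lie at the upper right, the A20iKO libraries lowest in Ifi205 at 7.26 to 13.7 CPM, and WT replicates 1 and 2 lie above the line.

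Aim2, the inflammasome-forming DNA sensor, kept nearly the same level in all 3 groups. It had 101, 107 and 118 CPM in A20iKO, 149, 139 and 125 CPM in WT+IFNa and 143, 100.2 and 131 CPM in WT. Both A20iKO and WT+IFNa overlapped WT, with log2 fold changes of -0.20 (SE 0.174) and 0.14 (SE 0.174). The 3 A20iKO libraries lay below the 3 WT+IFNa libraries, with a log2 fold change of -0.34 (SE 0.175). In A20iKO and WT Aim2 was the third most abundant member, and in WT+IFNa 7 members stood above it.

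In A20iKO against WT, 8 of the 10 members passed the threshold of the test over all genes (edgeR quasi-likelihood test, Benjamini-Hochberg adjusted p of 0.05), 7 higher and 1, Ifi205, lower. Of all genes tested 10.7% passed in this comparison, 5.77% higher and 4.91% lower. In WT+IFNa against WT 9 members passed, all higher, where 3.1% of all genes passed, 2.4% higher and 0.702% lower. A20iKO against WT+IFNa gave 9 members called lower, all but Aim2, where 5.46% of all genes passed, 2.05% higher and 3.41% lower. These counts are descriptions, since the members were chosen with these contrasts known.

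The libraries of A20iKO and WT did not overlap for 8 members, 7 higher and 1 lower, which held for 28% of all genes, 15.4% higher and 12.6% lower. In WT+IFNa against WT 9 members were higher without overlap, against 18.2% of all genes, 9.77% higher and 8.45% lower. All 10 were lower without overlap in A20iKO than in WT+IFNa, against 24.6% of all genes, 12.3% lower and 12.3% higher. The median log2 fold change of the members was 1.71 in A20iKO over WT, 2.98 in WT+IFNa over WT and -1.84 in A20iKO over WT+IFNa, where all genes tested had medians of -0.01, -0.02 and 0.02. Both comparisons with WT share the WT libraries. In A20iKO against WT+IFNa the call of Ifi204 (log2 fold change -1.79, SE 0.457) was lost in 9 of the 15 alternatives, among them whenever any 1 library of these groups was left out, and that of Ifi206 (-2.20, SE 0.466) without A20iKO replicate 3 or WT+IFNa replicate 1 or 2.

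**Figure D4:**
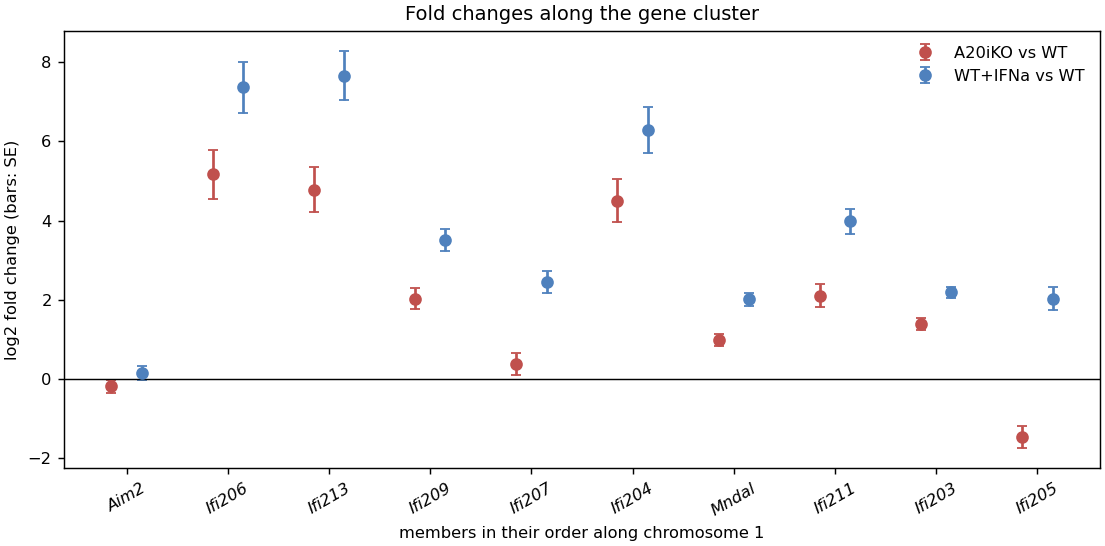
Log2 fold change (points) with its SE (bars) of each member in A20iKO over WT and in WT+IFNa over WT, in chromosomal order; the line marks no difference. Ifi206, Ifi213 and Ifi204 stand highest in both, and Ifi205, at the end of the cluster, is the member whose values lie far on opposite sides of the line, at -1.47 and 2.03.

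Within a group, the order of neighbouring members often lay within their spread. In A20iKO the library ranges overlapped from each gene to the next along Ifi209, Ifi211, Ifi204, Ifi207 and Ifi213. They also overlapped for Ifi203 with Mndal and for Ifi206 with Ifi205. In WT+IFNa this held for Mndal with Ifi203, Ifi213 with Ifi211, Ifi204 with Ifi207, Ifi207 with Ifi209 and Ifi205 with Ifi206. The WT ranges overlapped for Mndal with Ifi203, along Ifi207, Ifi205, Ifi209 and Ifi211, and along Ifi204, Ifi213 and Ifi206.

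Libraries of a group also differed across the family as a whole. A20iKO replicate 1 was the lowest of its group for 8 of the 10 members, WT+IFNa replicate 3 for 7 and WT replicate 2 for 6. The same 3 libraries held the most stromal RNA of their groups, with 3579, 4012 and 3552 CPM summed over 5 collagen and stromal markers, against 381 to 1959 CPM in the other 6 libraries; its part in the members' levels was not tested.

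Across the 9 libraries, which fall into 3 groups of unequal level, the log2 CPM of the 8 members other than Ifi205 and Aim2 correlated with each other at Pearson's r of 0.69 to 0.99 (28 pairs). Ifi205 correlated with these 8 at 0.29 to 0.80 and Aim2 with the other 9 at 0.04 to 0.70. These values describe libraries that share their group differences and are not tested.

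The genes of most similar pattern were sought among 8161 other genes with a mean of at least 10 CPM. For Ifi204 they included Isg15 (r = 0.988) and Rtp4 (0.984), and for Ifi206 Ifit3 (0.989) and Rtp4 (0.988). Ifi213 was nearest to Oas2 (0.993), Rtp4 (0.992) and Ifit3 (0.990). Isg15 is a ubiquitin-like modifier, and Ifit3 and Oas2 are antiviral proteins. Ifi203 was nearest to Oasl2 (0.988), Trim30a (0.986) and Parp14 (0.984), and Mndal to Trim30a (0.992), Slfn5 (0.983) and H2-K1 (0.982), the last a class I antigen-presenting molecule. H2-K1 also stood among the nearest of Ifi209 (0.989, after Herc6 at 0.993 and Rnf213 at 0.991) and of Ifi211 (0.987, with Slfn2 and Slfn5 both at 0.986).

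The remaining 3 members had other neighbours. Ifi207 was nearest to Agtpbp1 (0.981), Ccnd2 (0.978), which encodes cyclin D2, and the chemokine Ccl6 (0.976). By Spearman correlation these were not its nearest: Agtpbp1 and Ccnd2 held rank 54 and Ccl6 rank 137 of 8161 genes. Some neighbours named above also fell back by Spearman, Ifit3 to rank 47 for Ifi206 and Slfn5 to rank 25 for Mndal. Others did not, such as Herc6 for Ifi209 and Trim30a for Mndal, both at rank 1. Ifi205 was nearest to Dpy19l1 (0.973), Gas5 (0.961) and Cd300c (0.953). Dpy19l1 stood at 107 ± 8.55 CPM in A20iKO, 225 ± 27.3 CPM in WT+IFNa and 163 ± 16.7 CPM in WT, and Gas5, a noncoding host gene of small nucleolar RNAs, at 391 ± 9.04, 633 ± 13.6 and 508 ± 45.5 CPM in A20iKO, WT+IFNa and WT. Like Ifi205, both were lowest in A20iKO and highest in WT+IFNa, over a narrower range. Aim2 was nearest to Arid4a (0.951), Faap100 (0.950) and Ubr2 (0.949).

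Of 12 further mouse PYHIN symbols, 3 had a row, and the other 9 were not analysed here. Ifi208 had 13, 36 and 79 counts in A20iKO, 464, 254 and 46 in WT+IFNa and 1, 3 and 0 in WT. It rose in A20iKO by 4.84 on the log2 scale (SE 1.05; edgeR adjusted p = 0.00873) and in WT+IFNa by 7.45 (SE 1.09; edgeR adjusted p = 0.00142), with its WT+IFNa libraries spread from 6.84 to 50.6 CPM. With 1 library left out at a time the first value ran from 4.14 (without A20iKO replicate 3) to 6.21 and the second from 6.73 (without WT+IFNa replicate 1) to 8.82, the highest of both without WT replicate 2. The call in A20iKO was lost in a fit of these 6 libraries alone (edgeR adjusted p = 0.0785).

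The promoter of Ifi208 holds the same 50 letters as that printed for Ifi213, with which it shares 3' sequence. Ifi214 had 0, 11 and 0 counts in A20iKO, 45, 22 and 4 in WT+IFNa and none in WT, and did not pass the threshold (edgeR adjusted p = 0.275 and 0.220 against WT). Ifi202b, whose mouse protein antagonises AIM2, had no count in A20iKO, 0, 22 and 8 counts in WT+IFNa and 1 in WT, and fell below the filter.

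Beyond the cluster, the 5 genes with a row on each side were read, of which 3 of 10 were tested: Ackr1 and Cadm3 beside Aim2, and Fmn2 beyond Ifi205. Cadm3, a cell adhesion molecule, had 33.4, 38.2 and 48.6 CPM in A20iKO, 1.31, 3.24 and 2.23 CPM in WT+IFNa and 0.196, 1.74 and 1.62 CPM in WT. It rose in A20iKO by 5.08 on the log2 scale (SE 0.660; edgeR adjusted p = 0.000246) and did not pass in WT+IFNa (edgeR adjusted p = 0.611). Ackr1, the atypical chemokine receptor, stood at 16.4 ± 1.72 CPM in A20iKO, 0.412 ± 0.0743 CPM in WT+IFNa and 0.122 ± 0.135 CPM in WT, rose in A20iKO over WT (edgeR adjusted p = 0.000362) and did not pass in WT+IFNa (adjusted p = 0.490). Both genes were also higher in A20iKO than in WT+IFNa (edgeR adjusted p = 0.00142 for Cadm3 and 0.00248 for Ackr1). Fmn2 did not pass in any comparison. The 2 tested neighbours on the Aim2 side thus rose in A20iKO over WT, where the log2 fold change of Aim2 itself was -0.20.

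Genes of cytosolic DNA sensing through STING numbered 30, of which 28 were tested. In A20iKO 6 rose over WT and none fell, in WT+IFNa 4 rose and none fell, and A20iKO against WT+IFNa gave 1 higher and 1 lower. Of all genes tested, 5.77% rose and 4.91% fell in A20iKO, and 2.4% rose and 0.702% fell in WT+IFNa. Between A20iKO and WT+IFNa 2.05% were higher and 3.41% lower. The median log2 fold changes of the list were 0.43, 0.15 and 0.18 in these comparisons, beside -0.01, -0.02 and 0.02 for all genes tested. Cgas, the enzyme that makes the STING ligand from DNA, had 77.0, 83.6 and 106 CPM in A20iKO, 118, 119 and 105 CPM in WT+IFNa and 35.4, 40.3 and 31.6 CPM in WT, a rise of 1.31 in A20iKO (SE 0.191; edgeR adjusted p = 0.000578) and of 1.67 in WT+IFNa (SE 0.193; edgeR adjusted p = 0.000173) on the log2 scale.

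Irf7 and Zbp1 also rose over WT in both conditions. Irf7, an interferon-induced transcription factor, stood at 107 ± 24.0 CPM in A20iKO, 476 ± 56.5 CPM in WT+IFNa and 9.07 ± 2.52 CPM in WT, with log2 fold changes of 3.56 and 5.72 over WT (edgeR adjusted p = 1.19e-06 and 5.66e-08). Zbp1, a sensor of Z-form nucleic acids, stood at 50.1 ± 12.6, 112 ± 20.6 and 2.99 ± 3.11 CPM in A20iKO, WT+IFNa and WT (log2 fold changes 4.02 and 5.18; edgeR adjusted p = 0.000825 and 0.000324), with values of 5.10 and 6.27 without WT replicate 3. Of these 3 genes only Irf7 passed between A20iKO and WT+IFNa, where it was lower in A20iKO (log2 fold change -2.16, edgeR adjusted p = 6.87e-05).

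Other genes of the list passed in 1 comparison with WT and not in the other. Sting1, the adaptor itself, had 162, 189 and 202 CPM in A20iKO, 131, 118 and 127 CPM in WT+IFNa and 104, 84.5 and 102 CPM in WT, with log2 fold changes of 0.93 (edgeR adjusted p = 0.00195) and 0.38 (adjusted p = 0.333); the difference between A20iKO and WT+IFNa was not past the threshold (0.55, edgeR adjusted p = 0.0657). Dnase1l3, a secreted nuclease, stood at 28.4 ± 1.02 CPM in A20iKO, 0.195 ± 0.222 CPM in WT+IFNa and 0.403 ± 0.467 CPM in WT, and was higher in A20iKO than in either (edgeR adjusted p = 0.00101 against WT+IFNa and 0.000855 against WT). Samhd1, a nucleotide hydrolase, rose in WT+IFNa (1.01 on the log2 scale, edgeR adjusted p = 0.0074) and had 0.33 in A20iKO (adjusted p = 0.319).

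The inflammasome and pyroptosis list, which holds the partners of Aim2, had 23 of 24 genes tested. In A20iKO 6 rose and 2 fell against WT, in WT+IFNa 2 rose and none fell, and A20iKO against WT+IFNa gave 4 higher and 1 lower. Of all genes tested, 5.77% were higher and 4.91% lower, 2.4% and 0.702%, and 2.05% and 3.41% in these comparisons. The list medians were 0.46, 0.39 and 0.12, beside -0.01, -0.02 and 0.02 for all genes tested. The direct partners of Aim2, named here after their values were seen, did not pass against WT. Pycard, which encodes ASC, stood at 150 ± 40.4, 139 ± 11.4 and 122 ± 20.5 CPM in A20iKO, WT+IFNa and WT (edgeR adjusted p = 0.476 and 0.840), and the p-values were 0.654 and 0.954 for Casp1 (caspase-1) and 0.478 and 0.844 for the pore-forming Gsdmd.

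Il1b, the cytokine that caspase-1 matures, had 163, 138 and 157 CPM in A20iKO, 14.4, 8.11 and 11.9 CPM in WT+IFNa and 14.6, 6.55 and 0 CPM in WT, a rise of 4.43 in A20iKO over WT (SE 0.824; edgeR adjusted p = 0.00334) and none past the threshold in WT+IFNa (0.69, adjusted p = 0.826). The A20iKO value was 5.62 without WT replicate 1 and 3.83 without WT replicate 3. Against WT+IFNa, the call of its rise of 3.73 (edgeR adjusted p = 0.0139) was lost without any 1 of the WT+IFNa libraries (adjusted p = 0.0504 to 0.0876). Ninj1, which mediates membrane rupture, stood at 72.1 ± 5.79, 26.1 ± 10.3 and 14.4 ± 2.64 CPM in A20iKO, WT+IFNa and WT (log2 fold change 2.33 in A20iKO over WT, edgeR adjusted p = 0.000272). Mefv, which encodes pyrin, had 20.6 ± 3.15, 0.971 ± 0.461 and 1.44 ± 1.47 CPM in the same groups (adjusted p = 0.0207 by edgeR for A20iKO against WT), a call lost without A20iKO replicate 2 or 3 or WT replicate 1 (adjusted p = 0.0550 to 0.0818). Its call between A20iKO and WT+IFNa (edgeR adjusted p = 0.0193) was lost without A20iKO replicate 2 or 3 or any 1 WT+IFNa library (adjusted p = 0.0583 to 0.0801).

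Txnip, which binds Nlrp3 in mouse and human cells, fell in A20iKO, with 273 ± 35.0 CPM against 728 ± 142 CPM in WT+IFNa and 988 ± 129 CPM in WT (-1.85 over WT, edgeR adjusted p = 1.62e-05). Nlrp3 and Nlrc4, inflammasome sensors named after their values were seen, also passed against WT. Nlrp3 fell (log2 fold change -1.03, edgeR adjusted p = 0.0444), with 36.7 ± 11.4 CPM in A20iKO and 74.7 ± 30.2 CPM in WT, a call lost in 9 of 15 alternatives, among them without any 1 A20iKO or WT+IFNa library or WT replicate 1 (adjusted p up to 0.192). Nlrc4 rose (1.21, edgeR adjusted p = 0.0265), a call lost without A20iKO replicate 2 or 3 or WT replicate 1 or 3 (adjusted p = 0.0793 to 0.122). The inhibitor Il18bp stood at 4.97 ± 2.55 CPM in A20iKO and 5.42 ± 1.99 CPM in WT+IFNa and had no count in WT, at least 43.9-fold and at least 49.0-fold higher against 3 counts over the WT group (edgeR adjusted p = 0.00306 and 0.00722). The receptor antagonist Il1rn stood at 22.5 ± 14.4 CPM in A20iKO and 2.53 ± 0.776 CPM in WT+IFNa, with 2 counts in WT (edgeR adjusted p = 0.000248 and 0.0163 against WT); the second call was lost in 4 of 15 alternatives, with adjusted p up to 0.293, among them without WT+IFNa replicate 2 or WT replicate 1 or 3.

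All 20 genes of interferon receptor signalling were tested. In A20iKO 6 rose and 3 fell against WT, in WT+IFNa 6 rose and none fell, and A20iKO against WT+IFNa gave 4 higher and 3 lower. Of all genes tested, 5.77% were higher and 4.91% lower, 2.4% and 0.702%, and 2.05% and 3.41% in these comparisons. The list medians were 0.50, 0.35 and -0.47, beside -0.01, -0.02 and 0.02 for all genes tested. Isg15 had 144, 169 and 179 CPM in A20iKO, 389, 373 and 366 CPM in WT+IFNa and 0.294, 12.8 and 7.52 CPM in WT. Its log2 fold changes over WT were 4.61 and 5.81 (edgeR adjusted p = 0.000434 and 0.000193), and 5.40 and 6.59 without WT replicate 2; the second was 5.22 without WT replicate 1. WT replicate 1 was lowest in Isg15, as it was in Ifi204, Ifi206 and Ifi213, but highest in its group in Usp18, an inhibitor of interferon signalling that stood at 48.7 ± 14.2, 127 ± 20.4 and 6.38 ± 4.95 CPM in A20iKO, WT+IFNa and WT (log2 fold change 4.29 in WT+IFNa, 5.05 without that library; edgeR adjusted p = 0.000154).

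Irf1, an activator of interferon-stimulated genes, rose in both, by 1.12 in A20iKO and 1.51 in WT+IFNa (edgeR adjusted p = 0.000295 and 4.27e-05). Stat2, a part of ISGF3, rose in WT+IFNa, with 53.4 ± 6.55 CPM in A20iKO, 149 ± 43.5 CPM in WT+IFNa and 36.9 ± 2.53 CPM in WT (log2 fold changes 0.53 and 2.02 over WT, edgeR adjusted p = 0.179 and 0.000171), and it was lower in A20iKO than in WT+IFNa (-1.49, edgeR adjusted p = 0.00162). Jak2 and Socs3, a kinase of cytokine receptors and a feedback inhibitor, rose in A20iKO over WT by 1.38 and 1.83 (edgeR adjusted p = 7.24e-05 and 0.000327) and did not pass in WT+IFNa (0.24 and -0.88, edgeR adjusted p = 0.596 and 0.0905). Irf5 fell in A20iKO (-1.54, edgeR adjusted p = 0.000256), with 141 ± 18.0 CPM against 324 ± 28.5 CPM in WT+IFNa and 408 ± 121 CPM in WT.

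**Figure D5:**
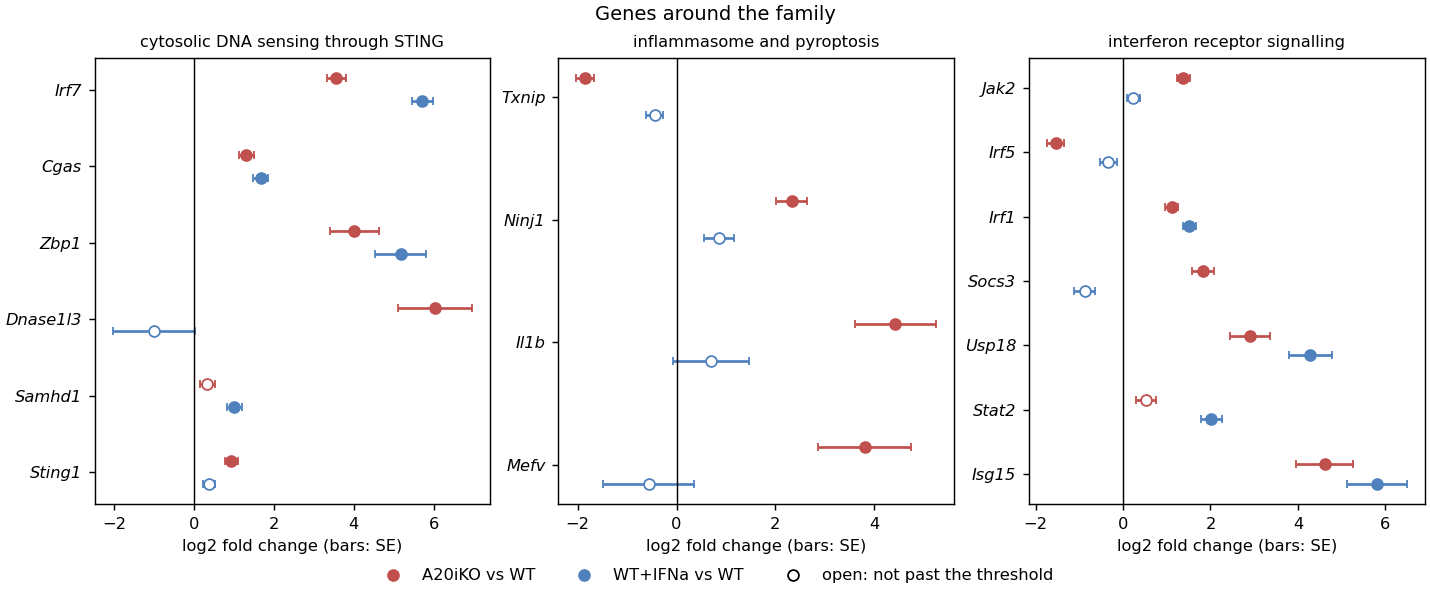
Log2 fold change (points) with its SE (bars) over WT of named genes in the 3 lists, A20iKO above WT+IFNa for each gene; open points did not pass the threshold. Irf7, Cgas, Zbp1, Irf1, Usp18 and Isg15 pass in both, whereas Dnase1l3, Sting1, Txnip, Ninj1, Il1b, Mefv, Jak2, Irf5 and Socs3 pass in A20iKO and Samhd1 and Stat2 in WT+IFNa; apart from the direct contrasts given above, differences between the 2 sets of points were not tested.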

How the data were processed

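Expression was measured by QuantSeq 3' mRNA sequencing in 9 libraries, 3 per group, grouped and numbered by their titles. The authors deposited raw counts for each gene symbol. The submitters' processing notes name featureCounts 2.0.6, STAR 2.7.10b, Bowtie2, fastp 0.23.1 and build GRCm39. Annotation, strand setting and the handling of multi-mapping reads were not given in the sources used here.

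No pair of libraries in a group agreed within counting noise, as repeat deposits of 1 library would (chi-square per degree of freedom 14.4 to 64.2). This does not show that they are biological replicates. Of 40879 symbols, filterByExpr (minimum count 10, minimum total 15) kept 13251, holding 99.83% of counts. One edgeR fit (4.0.16, R 4.3.3; TMM factors, quasi-likelihood test, 6 residual degrees of freedom, common coefficient of variation 0.554) gave the 3 comparisons, with Benjamini-Hochberg adjustment over all genes kept and a threshold of 0.05. It was tested on simulated counts, for A20iKO against WT only. Of genes given a log2 fold change of -2 or 2 it called 56% and 66.7%, and of -3 or 3, 69.4% and 90%. Among its calls 4.79% were false. A gene that did not pass can therefore still differ. P-values measure the spread between these libraries, which may be technical. Bounds against 3 counts cover counting error only.

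Members, lists, tests and naming rule were chosen with earlier results of these data known. The text names all members, up to 4 genes of smallest p per list and comparison, and per member the 3 genes of highest Pearson correlation of log2 CPM (prior count 2) among non-predicted genes of mean CPM of at least 10; 1 gene that this rule names is not reported here. Alternatives were RLE factors, library size alone, no filter, DESeq2 1.42.0, the 6 libraries of a comparison alone, a replicate block, leaving out each library, summed member counts and Spearman correlation. Promoter sequence is RefSeq's for GRCm38.p6. Coordinates are therefore not those of the counting build, and 3' ends are from GENCODE M21.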

Additional observations from a re-analysis of the deposited data

How the results depend on the processing

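The log2 fold change of each member called in a comparison kept its sign in all 15 alternative fits. Counts of genes moved more. Called higher in WT+IFNa over WT were 318 genes, and 490 by DESeq2; called lower were 93, against 184 with library size alone, 164 without a filter, 210 by DESeq2 and 45 with the replicate number as a block. Called higher in A20iKO over WT+IFNa were 271, against 430 without a filter, 497 by DESeq2 and 469 in a fit of the 6 libraries. With library size alone the median of all genes' log2 fold changes was -0.15 in WT+IFNa over WT and 0.12 in A20iKO over WT+IFNa.

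Other PYHIN genes higher in A20iKO over WT numbered 0 with 6 libraries, and lower in A20iKO over WT+IFNa 1 without a filter and by DESeq2. Inflammasome genes lower in A20iKO over WT numbered 1 with the block or 6 libraries, those higher in WT+IFNa 1 with 6 libraries, those higher in A20iKO over WT+IFNa 2 with the block, and those lower 2 without a filter. Interferon signalling genes lower in WT+IFNa numbered 2 with library size alone and by DESeq2, and lower in A20iKO over WT+IFNa 9 without a filter and 8 by DESeq2 and with 6 libraries. STING genes higher in A20iKO over WT+IFNa numbered 2 with RLE factors, library size alone or no filter, 3 by DESeq2 and 4 with 6 libraries, and lower 2 with RLE factors, 4 without a filter and 3 by DESeq2 and with 6 libraries. The Mefv call between A20iKO and WT+IFNa was lost with the block (edgeR adjusted p = 0.0559), as were that of Ifi204 and, in A20iKO over WT, that of Nlrp3 (adjusted p = 0.113). The family's log2 fold change from summed member counts was 1.14, 2.36 and -1.23 in A20iKO over WT, WT+IFNa over WT and A20iKO over WT+IFNa, below the medians in size because Ifi203 and Mndal dominate the sum.

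Leaving out each library gave 478 to 750 genes higher and 439 to 683 lower in A20iKO over WT (under 500 higher without A20iKO replicate 2 or 3), 225 to 319 higher and 43 to 107 lower in WT+IFNa over WT (under 60 lower without any WT+IFNa library or WT replicate 1 or 3), and 145 to 352 higher and 227 to 523 lower in A20iKO over WT+IFNa (fewest without A20iKO replicate 2 or WT+IFNa replicate 1). Member medians ran from 1.55 to 1.81, 2.72 to 3.16 and -1.88 to -1.77. In A20iKO over WT+IFNa, 1 to 2 STING genes were higher and 1 to 3 lower, 0 to 4 inflammasome genes higher, 2 to 4 interferon signalling genes higher and 2 to 7 lower, and 0 to 1 other PYHIN genes lower; inflammasome genes lower in A20iKO over WT numbered 1 to 2 and higher in WT+IFNa 1 to 2. Deviations from the group means correlated at -0.541 to 0.419 for the same replicate number (9 pairs) and at -0.474 to 0.530 otherwise (18 pairs). A20iKO replicate 1, WT+IFNa replicate 3 and WT replicate 2, richest in stromal RNA, correlated with each other at 0.530, 0.490 and 0.411. Differences in stromal RNA could hide a pairing, so whether replicate numbers mark pairs cannot be told. The cause of the shifts between fits was not tested. Counts under 70 per WT library limit the fold changes of Ifi204, Ifi206 and Ifi213.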
